A study of Mus musculus with 6 samples.

Results

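The 30 genes described here encode enzymes that make, recycle or break down purine, pyrimidine and deoxynucleotides, and they were taken by name from the 22095 rows with gene identifiers in the deposited table. All 30 had a gene row, and all 30 reached the minimum mean of 10 TPM (transcripts per 1000000, an abundance corrected for gene length) that 6466 gene rows passed. Naive CD8 T cells, the precursors of killer lymphocytes, were purified from spleens of wild type C57BL/6 mice, an inbred strain. There were 3 libraries from cells stimulated for 48 h with anti-CD3 and anti-CD28 antibodies and 10 nM ponatinib, a drug that blocks the leukaemia kinase BCR-ABL and further kinases, and 3 from cells stimulated for 48 h in the same way with DMSO, the solvent. Both groups were grown in medium with serum and recombinant mouse IL-2. The labels give neither the age of the mice nor whether libraries of a group came from separate animals or wells. The p-values are therefore about the spread of these libraries, which may be only technical.

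A resting T cell that starts to divide needs far more nucleotides, for RNA first and for DNA in S phase. Purines are built stepwise on PRPP, an activated ribose phosphate, up to IMP, which is then turned into AMP or GMP. Pyrimidines are built as a free ring that is joined to PRPP to give UMP and, later, CTP. Ribonucleotide reductase turns ribonucleotides into deoxynucleotides, thymidylate enzymes supply dTTP, salvage enzymes reuse bases and nucleosides, and SAMHD1 breaks dNTPs down again. The amounts of many of these enzymes follow the growth signal and the cell cycle.

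With ponatinib, 13 of the 30 genes (43.3%) were higher and 0 were lower (limma, Benjamini-Hochberg adjusted p under 0.05 over all kept genes). The background was high: 29.9% of all 6466 kept genes were higher and 9.88% lower. The log2 fold changes, taken on TPM + 1, were small, from -0.24 for Samhd1 to 0.53 for Pfas and none exceeded 1. At an unadjusted p under 0.05, 2 members, Hprt and Nme2, were lower. The 6 genes Ppat, Ctps, Dck, Nme1, Rrm1 and Rrm2 were called higher in the main test and under each of the 16 other settings tried. The share of all kept genes called under every setting was not worked out, so this count has no background beside it. The 6 genes encode the first enzyme of purine synthesis, a CTP synthase, a deoxynucleoside kinase, a nucleoside diphosphate kinase and both subunits of ribonucleotide reductase. On GRCm38 they lie at chr5:76913249-76951578 on the minus strand (Ppat, ENSMUSG00000029246), at chr4:120539868-120570276 on the minus strand (Ctps, ENSMUSG00000028633), at chr5:88764996-88783281 on the plus strand (Dck, ENSMUSG00000029366), at chr11:93956979-93968521 on the minus strand (Nme1, ENSMUSG00000037601), at chr7:102441695-102469771 on the plus strand (Rrm1, ENSMUSG00000030978), and at chr12:24708241-24714146 on the plus strand (Rrm2, ENSMUSG00000020649). In each of the 6, every ponatinib library lay above every DMSO library. That was so for 18 of the 30 members (39.4% of all kept genes), and 2 members, Hprt and Nme2, lay wholly below (14.0% of all kept genes); the other 10 overlapped.

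**Figure D1:**
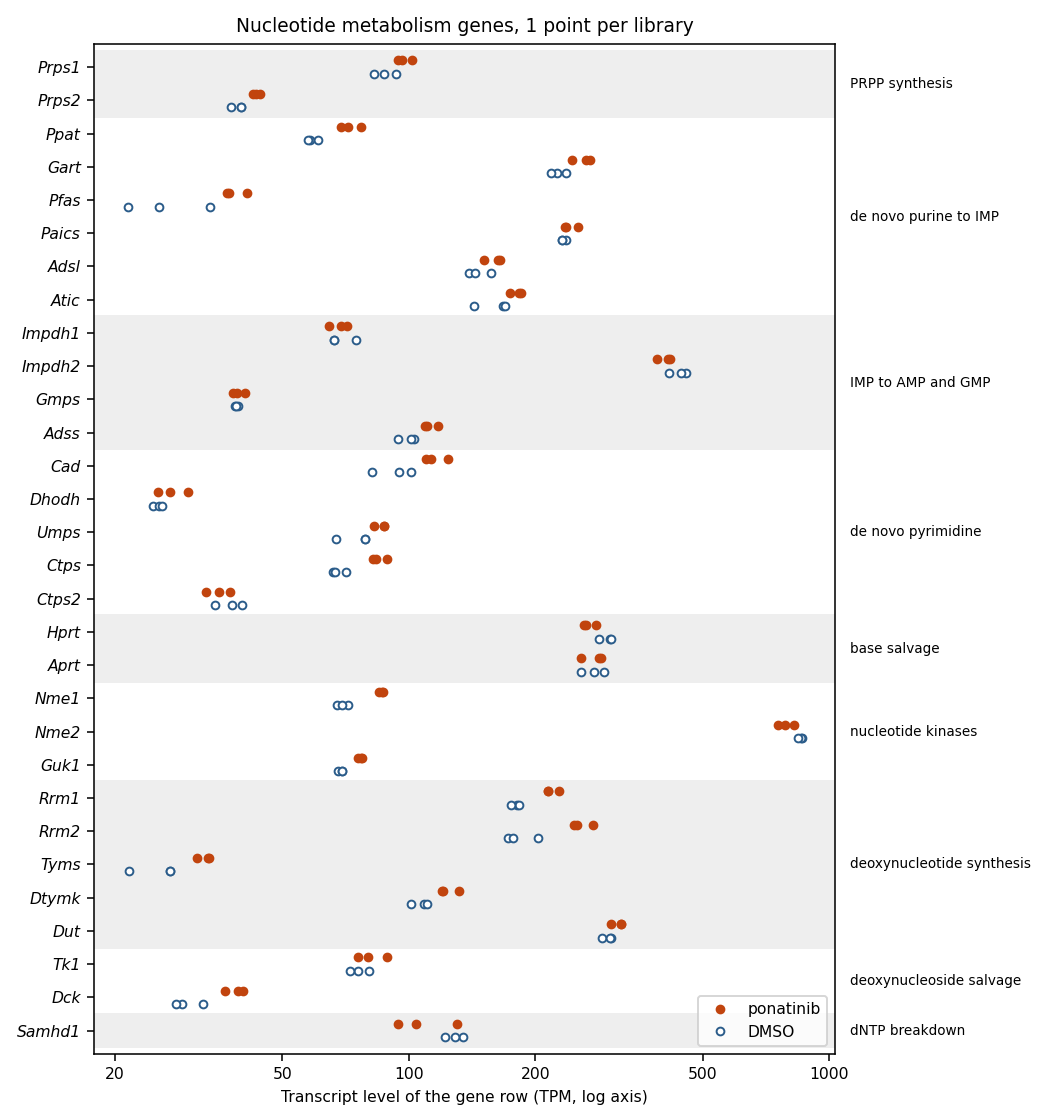
Transcript level of each of the 30 genes (TPM, log axis), with 1 point per library, ponatinib as filled points and DMSO as open points, grouped by step. Levels run from 21.5 TPM for Pfas in a DMSO library up to 861 TPM for Nme2, and within a gene the groups lie close together.

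The scale of the table bears on these counts. TPM are relative to the library total, and the median log2 fold change of all kept genes was 0.10 rather than 0. Rescaling the libraries by medians of ratios brought that median to 0.0011. On that scale 7 members (23.3%) were higher, against 16.4% of all kept genes, and 3 members (10%), Impdh2, Hprt and Nme2, were lower, against 18.0% of all kept genes. The 7 were the 6 genes named above and Pfas, and all 7 were among the 13. On the deposited scale 19 of the 30 log2 fold changes lay above the median of all kept genes, and the median of the 30 lay 0.048 above it.

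**Figure D2:**
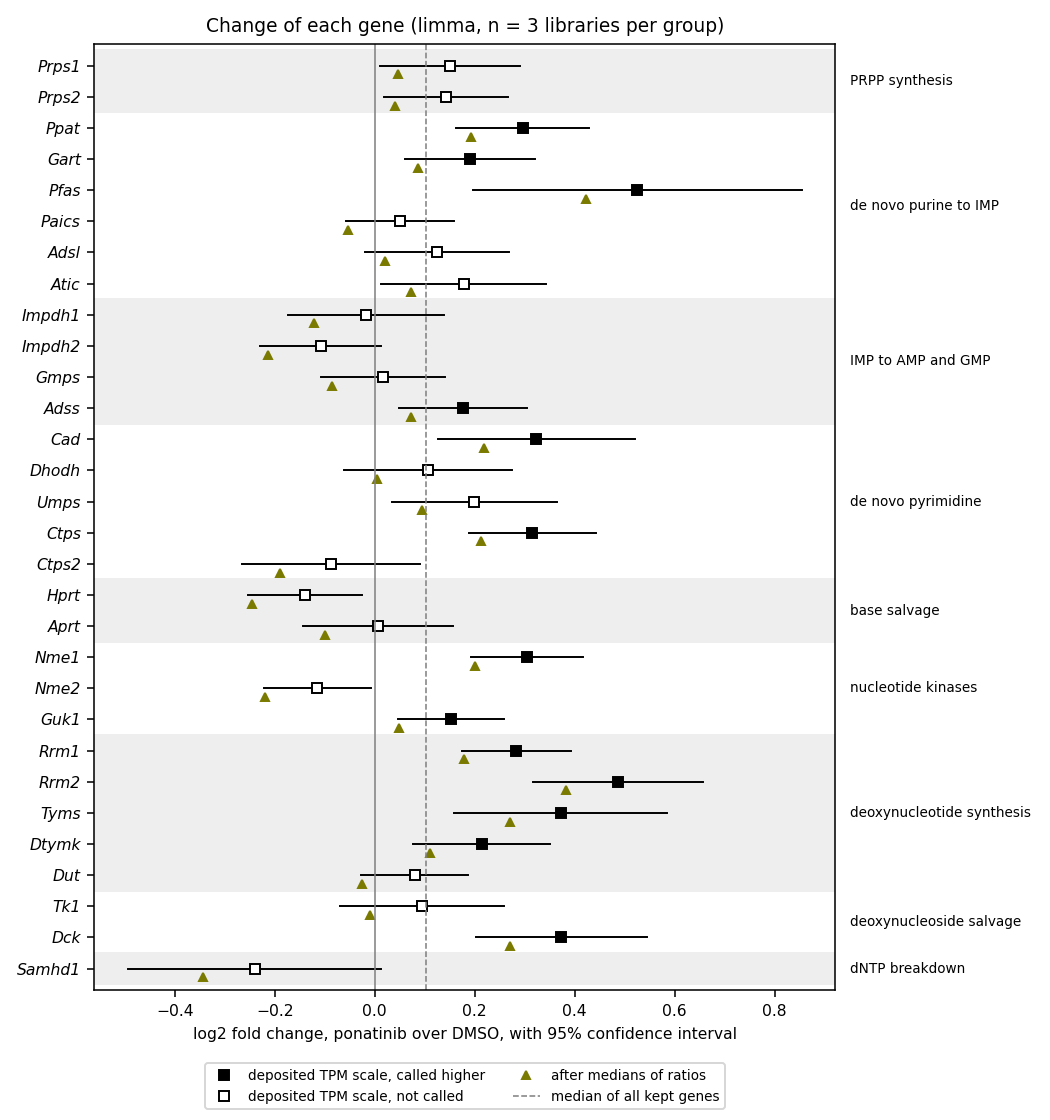
Log2 fold change of each gene, ponatinib over DMSO, as squares with 95% confidence intervals from limma (n = 3 libraries per group), filled where called higher, and as triangles after medians of ratios. The dashed line marks the median of all kept genes, 0.10; Rrm2, Dck, Tyms and Pfas lie farthest to the right and Samhd1 farthest to the left.

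The first principal component of all kept genes took up 74.6% of the variance and split the libraries by treatment, and the second, with 16.3%, set DMSO replicate 3 apart from the other libraries. Mitochondrial genes held 8.56, 8.81 and 7.70% of the gene row TPM in ponatinib libraries, against 10.5, 11.5 and 5.15% in DMSO replicates 1, 2 and 3. The part of this share in the results below was not tested. TPM keep no read depth, so none is given here; 6182 to 6620 gene rows per library reached 10 TPM. The 7 CD8 T cell markers summed to 1988 to 2224 TPM with ponatinib and 1858 to 2039 TPM with DMSO, and all 7 passed the minimum. Markers of other cells were low and summed to 17.3 to 19.8 TPM with ponatinib and 7.39 to 14.1 TPM with DMSO over 8 B cell genes, 16.4 to 19.7 TPM with ponatinib and 5.21 to 9.53 TPM with DMSO over 4 CD4 T cell genes, and 7.54 to 9.72 TPM with ponatinib and 2.64 to 2.90 TPM with DMSO over 8 myeloid genes. The 4 NK cell genes summed to 0.933 to 1.36 TPM with ponatinib and 0.458 to 0.964 TPM with DMSO, and the 8 erythroid and platelet genes to 4.23 to 8.37 TPM with ponatinib and 0.853 to 1.89 TPM with DMSO. The CD8 T cell and NK cell sums overlapped between the groups, and the B cell, CD4 T cell, myeloid, and erythroid and platelet sums did not. The CD8 T cell sum hides shifts both ways. Of its 7 genes, 3 lay higher and 1 lower in every ponatinib library (39.4% and 14.0% of all kept genes). In the main test 3 of the 7 were called higher and 1 lower (29.9% and 9.88% of all kept genes). In the other lists 3 of 8 B cell, 3 of 4 CD4, 5 of 8 myeloid, 2 of 4 NK and 3 of 8 erythroid and platelet genes lay higher in every ponatinib library. Of the genes in these lists only Cd79b passed the minimum. The 39.4% of all kept genes is therefore not a like background for these counts, and a share among genes under the minimum was not worked out. The CD4 lineage factor Zbtb7b lay lower in every ponatinib library, at 1.03, 1.10 and 0.978 TPM in ponatinib libraries, against 2.48, 1.46 and 4.64 TPM in DMSO libraries. The genes Adgre1, Ncr1, Hba-a1, Hbb-bt and Alas2 were each listed at 0 in 3 of the 6 libraries. The part of such cells in the results below was not tested. In bulk RNA, fewer cells of a type and less RNA per cell cannot be told apart.

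Of the 5 genes for deoxynucleotide synthesis, 4 were higher with ponatinib, against 29.9% of all kept genes (2 after medians of ratios, against 16.4%). Their median log2 fold change, 0.28, was the highest of the steps with 3 or more genes on gene rows. With transcript rows added, 3 of the 5 were higher and the median was 0.20, as were 3 of 5 and 0.20 for pyrimidine synthesis. In that setting 27.3% of all kept genes were higher. Rrm2 encodes the small subunit of ribonucleotide reductase, which holds the radical needed for catalysis and is made in S phase. It stood at 248, 251 and 275 TPM in ponatinib libraries, against 172, 177 and 203 TPM in DMSO libraries. All ponatinib libraries lay above all DMSO libraries, and DMSO replicate 3 was the highest of the DMSO libraries (log2 fold change 0.49, SE 0.074, adjusted p = 0.00218). Rrm1, the large subunit that binds substrate and allosteric nucleotides, stood at 215, 215 and 227 TPM in ponatinib libraries, against 181, 183 and 175 TPM in DMSO libraries (log2 fold change 0.28, SE 0.047, adjusted p = 0.00325). The groups did not overlap for Rrm1 either, and after medians of ratios the log2 fold changes were 0.38 for Rrm2 and 0.18 for Rrm1 (adjusted p = 0.00208 and 0.0399). In the DMSO libraries the transcripts of both subunits were close to equal in level, with Rrm1 at 46.4, 46.1 and 45.2% of their sum with ponatinib, against 51.3, 50.8 and 46.2% with DMSO. The share was lower in the ponatinib libraries than in DMSO replicates 1 and 2, but DMSO replicate 3 lay within the ponatinib range. With transcript rows added, the share was 46.6, 46.9 and 46.8% with ponatinib, against 52.8, 54.0 and 48.2% with DMSO, and the groups did not overlap. The change of Rrm1 was smaller with transcript rows added (log2 fold change 0.20, SE 0.061, adjusted p = 0.0355, mean 15.0% higher), still without overlap between the groups.

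Both reductase genes were called higher under each setting, and their promoters are shown from 250 bases before to 50 bases after the RefSeq start on GRCm38.p6. Rrm1 lies at chr7:102441445-102441744 on the plus strand and Rrm2 at chr12:24708004-24708303 on the plus strand. Capitals mark exact matches on either strand to the E-box CACGTG, bound by MYC and related factors, to the E2F motif TTTCCCGC or TTTGGCGC, or to CCAAT, the core of the NF-Y motif.
Rrm1: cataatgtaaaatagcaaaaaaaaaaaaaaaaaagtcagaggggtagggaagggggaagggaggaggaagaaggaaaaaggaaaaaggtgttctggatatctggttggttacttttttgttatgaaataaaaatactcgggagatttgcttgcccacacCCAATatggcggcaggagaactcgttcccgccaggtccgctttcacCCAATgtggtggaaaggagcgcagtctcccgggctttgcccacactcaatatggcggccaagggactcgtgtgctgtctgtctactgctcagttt
Rrm2: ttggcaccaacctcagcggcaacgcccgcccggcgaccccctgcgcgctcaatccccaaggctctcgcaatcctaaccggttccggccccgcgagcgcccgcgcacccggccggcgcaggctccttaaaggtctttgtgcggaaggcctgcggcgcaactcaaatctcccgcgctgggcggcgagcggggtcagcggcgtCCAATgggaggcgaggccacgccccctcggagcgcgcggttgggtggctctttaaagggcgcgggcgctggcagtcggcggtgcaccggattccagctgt
Rrm1 held 2 CCAAT matches and Rrm2 held 1, and neither held the E-box or the E2F letters in this window. Of 32851 promoter windows in the table, 37.4% held CCAAT, 7.15% the E-box and 1.56% the E2F letters.

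Tyms, which methylates dUMP to dTMP, had a gene row at 33.5, 31.3 and 33.3 TPM in ponatinib libraries, against 27.0, 26.9 and 21.6 TPM in DMSO libraries (log2 fold change 0.37, SE 0.092, adjusted p = 0.0152). The gene row held only part of the signal of this gene, as described with the transcript rows below. Dtymk, the kinase that makes dTDP from dTMP, averaged 124 ± 6.54 TPM with ponatinib and 107 ± 5.10 TPM with DMSO (log2 fold change 0.21, SE 0.059, adjusted p = 0.0233), with all ponatinib libraries above all DMSO libraries. Dut, which splits dUTP and so keeps uracil out of DNA, stood at 302, 321 and 320.2 TPM in ponatinib libraries, against 289, 302 and 301 TPM in DMSO libraries (log2 fold change 0.080, SE 0.046, adjusted p = 0.205); it did not pass the test, although the lowest ponatinib library lay just above the highest DMSO library. The Tyms call ended without ponatinib replicate 1 or 3 (adjusted p = 0.0554 and 0.0599), after medians of ratios (0.0905) and after quantile normalization (0.102). The Dtymk call ended without ponatinib replicate 2 or 3 or DMSO replicate 1 (adjusted p = 0.0566, 0.0884 and 0.0546) and under both rescalings (0.248 and 0.162).

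Of the kinases that salvage deoxynucleosides, Dck was higher and Tk1 did not pass the test. Dck phosphorylates deoxycytidine and also deoxyadenosine and deoxyguanosine, and it stood at 39.3, 36.6 and 40.3 TPM in ponatinib libraries, against 28.8, 27.9 and 32.4 TPM in DMSO libraries (log2 fold change 0.37, SE 0.074, adjusted p = 0.00646). The groups did not overlap, and the mean was 30.4% higher with ponatinib. Tk1, the S phase kinase of thymidine, stood at 75.8, 79.97 and 88.6 TPM in ponatinib libraries, against 75.9, 72.3 and 80.3 TPM in DMSO libraries (log2 fold change 0.095, SE 0.071, adjusted p = 0.320). Its groups overlapped. Samhd1, which cleaves dNTPs to nucleosides, had a gene row at 130.1, 104 and 94.2 TPM in ponatinib libraries, against 122, 135 and 129 TPM in DMSO libraries (log2 fold change -0.24, SE 0.11, adjusted p = 0.117). Ponatinib replicate 1 lay within the DMSO range and replicates 2 and 3 below it, so that without ponatinib replicate 1 the gene row was called lower (log2 fold change -0.37, adjusted p = 0.0135).

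**Figure D3:**
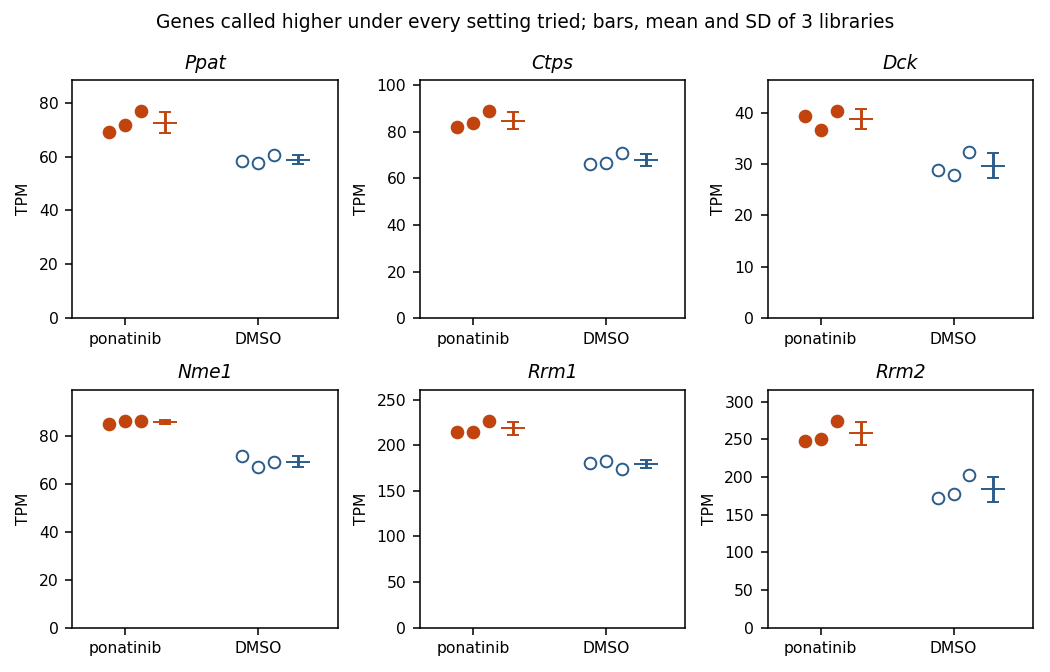
Gene row level (TPM, axes from 0) of Ppat, Ctps, Dck, Nme1, Rrm1 and Rrm2 in each library, with ponatinib as filled points and DMSO as open points, and the mean ± SD of 3 libraries beside them. In each panel all ponatinib points lie above all DMSO points; the mean difference runs from 21.8% for Rrm1 to 40.1% for Rrm2.

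For comparison, 7 of 23 kept S phase genes (the MCM helicase, PCNA, polymerase and related factors) were higher and 0 lower (3 and 1 after medians of ratios). Their median log2 fold change was 0.049. Of all kept genes 29.9% were higher and 9.88% lower (16.4% and 18.0% after medians of ratios). On gene rows the 5 deoxynucleotide synthesis genes together summed to 918, 938 and 987 TPM in ponatinib libraries, against 778, 800.0 and 801 TPM in DMSO libraries. The 24 listed S phase genes summed to 2966, 2950 and 3066 TPM in ponatinib libraries, against 2733, 2752 and 2783 TPM in DMSO libraries. Neither sum overlapped between the groups. Among all kept genes, 39.4% lay wholly above with ponatinib, and the median log2 fold change was 0.10, above the 0.049 of the S phase genes. A like share for sums of genes was not worked out. The difference between the medians of these lists was not tested.

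In the path that builds IMP on PRPP, 3 of 6 genes were higher with ponatinib (2 after medians of ratios) and 0 lower. Of all kept genes 29.9% were higher (16.4% after medians of ratios) and 9.88% lower. The median log2 fold change of this path was 0.18. Ppat, the amidotransferase that commits PRPP to purine synthesis, stood at 69.0, 71.8 and 76.8 TPM in ponatinib libraries, against 58.3, 57.6 and 60.6 TPM in DMSO libraries (log2 fold change 0.30, SE 0.058, adjusted p = 0.00598). The groups did not overlap. Pfas, which makes the amidine intermediate, had the largest log2 fold change of the 30 genes with all libraries, at 37.4, 37.0 and 41.1 TPM in ponatinib libraries, against 25.5, 21.5 and 33.6 TPM in DMSO libraries (log2 fold change 0.53, SE 0.14, adjusted p = 0.0213). The DMSO libraries were spread widely for this gene, DMSO replicate 3 standing nearest to the ponatinib libraries, and without that library the log2 fold change was 0.69 (adjusted p = 0.000203). Without DMSO replicate 2, the lowest, it was 0.38 (adjusted p = 0.0436), under the 0.46 of Rrm2 in the same setting. Gart, which carries several activities of the path in a single protein, averaged 259 ± 13.5 TPM with ponatinib and 227 ± 9.63 TPM with DMSO (log2 fold change 0.19, SE 0.056, adjusted p = 0.0288).

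The remaining genes of this path did not pass the test. Atic, which adds the last carbon and closes the ring, stood at 174, 182 and 185 TPM in ponatinib libraries, against 167, 169 and 143 TPM in DMSO libraries (log2 fold change 0.18, SE 0.072, adjusted p = 0.0828), without overlap between the groups. Adsl, which acts both here and in the making of AMP, averaged 159.7 ± 7.43 TPM with ponatinib and 146 ± 9.47 TPM with DMSO (log2 fold change 0.13, SE 0.062, adjusted p = 0.145). Paics, the carboxylase and synthetase in the middle of the path, stood at 236, 237 and 253 TPM in ponatinib libraries, against 237, 232 and 232 TPM in DMSO libraries (log2 fold change 0.051, SE 0.047, adjusted p = 0.417); its groups overlapped and its 95% interval ran from -0.057 to 0.16. The Pfas call ended without ponatinib replicate 1, 2 or 3 (adjusted p = 0.0599, 0.0520 and 0.0833), without DMSO replicate 1 (0.0638) and with no filter on low values (0.0607). The Gart call ended without ponatinib replicate 2 or 3 or DMSO replicate 1 (adjusted p = 0.104, 0.108 and 0.0874), after medians of ratios (0.329) and after quantile normalization (0.0945).

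Ppat and Paics are neighbours on opposite strands whose exons overlap, and their promoters are shown because one gene was called and the other was not. On GRCm38.p6 the RefSeq start of Ppat is at 76951578 of chromosome 5 on the minus strand and that of Paics at 76951302 on the plus strand, 276 bases apart, so that each gene is transcribed across the start of the other. In the GENCODE annotation 272 exonic bases are common to both genes, which is 6.15% of those of Ppat and 8.67% of those of Paics. The windows lie at chr5:76951529-76951828 on the minus strand for Ppat and chr5:76951052-76951351 on the plus strand for Paics, with capitals as above.
Ppat: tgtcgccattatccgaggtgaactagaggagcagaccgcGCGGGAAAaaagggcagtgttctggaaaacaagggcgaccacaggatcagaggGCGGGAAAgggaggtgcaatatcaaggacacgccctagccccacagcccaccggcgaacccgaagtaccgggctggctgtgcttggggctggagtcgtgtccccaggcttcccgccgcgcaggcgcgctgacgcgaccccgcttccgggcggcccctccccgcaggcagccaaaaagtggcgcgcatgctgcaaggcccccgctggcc
Paics: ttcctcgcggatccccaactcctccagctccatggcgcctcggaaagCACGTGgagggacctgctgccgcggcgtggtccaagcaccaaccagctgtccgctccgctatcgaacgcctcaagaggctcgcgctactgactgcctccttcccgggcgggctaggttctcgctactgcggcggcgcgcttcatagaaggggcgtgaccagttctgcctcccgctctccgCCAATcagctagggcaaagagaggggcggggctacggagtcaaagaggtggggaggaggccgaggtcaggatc
The Ppat window held 2 E2F matches, and the Paics window held 1 E-box and 1 CCAAT. The labels do not say that strand was kept, so reads from the common bases cannot be assigned by strand here. Ppat averaged 72.5 ± 3.95 TPM with ponatinib and 58.8 ± 1.59 TPM with DMSO, and Paics, at a level several times higher, averaged 242 ± 9.69 TPM with ponatinib and 234 ± 2.83 TPM with DMSO. Gart also shares 1014 exonic bases (19.7%) with the antisense gene Gm15964, with the same limit.

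Over all members, 28 had a promoter window in the RefSeq table; Pfas and Dhodh had none. The E-box was in 6 of the 28 (21.4%, against 8.09% of all 27025 genes with a window): Paics, Atic, Impdh2, Nme1, Tyms and Dtymk. The E2F letters were in 2 (7.14%, against 1.80%), Ppat and Prps2, and CCAAT in 10 (35.7%, against 41.1%). Of the 12 members with a window that were called higher, 3 held the E-box, 1 the E2F letters and 5 CCAAT. The shares of all genes cover every gene with a window, whatever its level here, whereas all 28 members passed the minimum of 10 TPM. The sets are thus unlike, and shares among kept genes were not worked out. A match is a description of the letters and no evidence of binding.

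PRPP itself is made by the synthetases Prps1 and Prps2, and neither passed the test. Prps1 stood at 94.4, 96.2 and 102 TPM in ponatinib libraries, against 87.3, 82.8 and 93.3 TPM in DMSO libraries (log2 fold change 0.15, SE 0.061, adjusted p = 0.0824), and Prps2 at 43.3, 42.4 and 44.1 TPM in ponatinib libraries, against 37.7, 39.9 and 39.7 TPM in DMSO libraries (log2 fold change 0.14, SE 0.054, adjusted p = 0.0660). In both genes every ponatinib library lay above every DMSO library by a small margin. Without DMSO replicate 3 both were called higher (adjusted p = 0.0153 and 0.0407). Prps1 made up 68.6, 69.4 and 69.8% of the pair with ponatinib, against 69.8, 67.5 and 70.1% with DMSO, and the groups overlapped.

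Of the 4 genes that turn IMP into AMP or GMP, 1 was higher with ponatinib and 0 lower, against 29.9% and 9.88% of all kept genes. Adss, which starts the branch to AMP, was higher at 111, 109 and 117 TPM in ponatinib libraries, against 103, 101 and 94.2 TPM in DMSO libraries (log2 fold change 0.18, SE 0.055, adjusted p = 0.0362), without overlap. The genes of the GMP branch did not pass the test. Impdh2, the main IMP dehydrogenase of proliferating lymphocytes and the target of mycophenolic acid, stood at 389, 414 and 417 TPM in ponatinib libraries, against 456, 444 and 417 TPM in DMSO libraries (log2 fold change -0.11, SE 0.053, adjusted p = 0.135). Its groups overlapped narrowly, at DMSO replicate 3. Its isoenzyme Impdh1 averaged 68.4 ± 3.40 TPM with ponatinib and 69.3 ± 4.94 TPM with DMSO (log2 fold change -0.017, SE 0.068, adjusted p = 0.861), and Gmps, which aminates XMP to GMP, averaged 39.3 ± 1.37 TPM with ponatinib and 38.8 ± 0.323 TPM with DMSO (log2 fold change 0.016, SE 0.054, adjusted p = 0.836). The 95% intervals of the log2 fold change were -0.17 to 0.14 for Impdh1 and -0.11 to 0.14 for Gmps. After medians of ratios Impdh2 was called lower (log2 fold change -0.21, adjusted p = 0.0365), as it was after quantile normalization (0.0156) and without DMSO replicate 3 (0.0289). The Adss call was the least stable of the 13: it ended under both rescalings (adjusted p = 0.420 and 0.283), without the intensity trend (0.0529) and without any 1 library other than DMSO replicate 3 (0.0666, 0.0777 and 0.131 without ponatinib replicates 1, 2 and 3, and 0.0599 and 0.0649 without DMSO replicates 1 and 2). Impdh1 made up 14.3, 14.3 and 14.6% of both IMP dehydrogenases with ponatinib, against 12.7, 13.0 and 15.2% with DMSO, and the groups overlapped. The branch genes as a set had a median log2 fold change of -0.00053.

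Of the 5 genes of pyrimidine synthesis, 2 were higher with ponatinib (1 after medians of ratios) and 0 lower. Of all kept genes 29.9% were higher (16.4% after medians of ratios) and 9.88% lower. The median log2 fold change of pyrimidine synthesis was 0.20. Cad encodes the protein that carries out the opening steps of the path and is its point of control by growth signals. It stood at 110.1, 124 and 113 TPM in ponatinib libraries, against 94.8, 101 and 81.6 TPM in DMSO libraries (log2 fold change 0.32, SE 0.085, adjusted p = 0.0193), without overlap between the groups. Ctps, the CTP synthase on which dividing human lymphocytes depend, stood at 82.0, 83.6 and 88.7 TPM in ponatinib libraries, against 66.1, 66.8 and 70.8 TPM in DMSO libraries (log2 fold change 0.32, SE 0.055, adjusted p = 0.00396). Its paralog Ctps2 was not called, at 37.5, 32.8 and 35.2 TPM in ponatinib libraries, against 40.1, 37.9 and 34.5 TPM in DMSO libraries (log2 fold change -0.088, SE 0.077, adjusted p = 0.394). Ctps made up 68.6, 71.8 and 71.6% of the pair with ponatinib, against 62.3, 63.8 and 67.3% with DMSO, and the groups did not overlap.

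Umps, which joins orotate to PRPP and makes UMP, stood at 82.7, 87.5 and 87.2 TPM in ponatinib libraries, against 78.7, 78.5 and 67.1 TPM in DMSO libraries (log2 fold change 0.20, SE 0.072, adjusted p = 0.0578). The groups did not overlap, but the gene missed the threshold; with transcript rows added to their gene it was called (adjusted p = 0.0498). Dhodh, the mitochondrial enzyme that makes orotate, averaged 27.4 ± 2.29 TPM with ponatinib and 25.3 ± 0.606 TPM with DMSO (log2 fold change 0.11, SE 0.073, adjusted p = 0.277), with overlap. The Cad call ended without ponatinib replicate 2 or 3 (adjusted p = 0.0763 and 0.0554) and after medians of ratios (0.136) or quantile normalization (0.0971). Umps shares 213 exonic bases (6.11%) with the antisense gene Gm15829.

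Neither base salvage enzyme passed the test. Hprt, which returns hypoxanthine and guanine to IMP and GMP, stood at 262, 264 and 279 TPM in ponatinib libraries, against 301, 284 and 302 TPM in DMSO libraries (log2 fold change -0.14, SE 0.049, adjusted p = 0.0539). Every ponatinib library lay below every DMSO library, and the difference of means was -9.29%. The call was absent on the deposited scale and present after medians of ratios (log2 fold change -0.25, adjusted p = 0.00505) and after quantile normalization (0.0180). Aprt, which returns adenine to AMP, stood at 256, 287 and 283 TPM in ponatinib libraries, against 276, 291 and 257 TPM in DMSO libraries (log2 fold change 0.0057, SE 0.065, adjusted p = 0.953), with overlapping groups and a 95% interval from -0.14 to 0.16. Hprt is often used as a control gene in PCR assays.

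Of the 3 kinases that charge nucleotides to di- and triphosphates, 2 were higher with ponatinib, against 29.9% of all kept genes. Guk1, which phosphorylates GMP and dGMP, was higher at 75.7, 77.1 and 77.0 TPM in ponatinib libraries, against 68.0, 69.1 and 69.4 TPM in DMSO libraries (log2 fold change 0.15, SE 0.046, adjusted p = 0.0317). Nme1, one of the main nucleoside diphosphate kinases, had a gene row at 85.1, 86.5 and 86.6 TPM in ponatinib libraries, against 71.7, 67.3 and 69.4 TPM in DMSO libraries (log2 fold change 0.31, SE 0.049, adjusted p = 0.00270). Nme2, its neighbour and paralog and the most abundant transcript of the 30, was not called, at 757, 785 and 825 TPM in ponatinib libraries, against 861, 858 and 843 TPM in DMSO libraries (log2 fold change -0.11, SE 0.046, adjusted p = 0.0822). The groups did not overlap in any of the 3, with Guk1 and Nme1 above and Nme2 below the DMSO libraries, and Nme2 was called lower after medians of ratios and quantile normalization (adjusted p = 0.0143 and 0.00656). The Guk1 call ended under both rescalings (adjusted p = 0.448 and 0.204) and without ponatinib replicate 1, 2 or 3 or DMSO replicate 1 or 2 (0.0543, 0.118, 0.0957, 0.111 and 0.0741).

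The split between Nme1 and Nme2 is uncertain, because the locus on chromosome 11 also holds Gm20390, a gene that runs through both on the minus strand, from 93949819 to 93968293. Gm20390 shares 573 exonic bases with Nme2 (48.9% of its exonic bases) and 418 with Nme1 (12.5%). Its own row stood at 235, 231 and 246 TPM in ponatinib libraries, against 240.1, 262 and 224 TPM in DMSO libraries, with overlapping groups. On gene rows Nme1 made up 10.1, 9.92 and 9.50% of Nme1 plus Nme2 with ponatinib, against 7.69, 7.28 and 7.61% with DMSO; with transcript rows added it made up 23.2, 23.9 and 25.4% with ponatinib, against 19.7, 17.5 and 20.5% with DMSO. The groups did not overlap either way.

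Besides gene rows the table lists single transcripts in rows of their own, and 16 of the 30 genes had such rows, 39 in all, of which 7 reached a mean of 10 TPM. These 7 lie outside the basic set of the GENCODE annotation. Of those annotated as protein-coding and described below, the coding part is 383 bases in Nme1-201, 418 in Tyms-209 and 1891 in Samhd1-206. These lengths were not compared with the full coding sequences. For Nme1 and Tyms the gene row held the smaller part of the gene sum in all 6 libraries, and for Samhd1 in the ponatinib libraries and DMSO replicate 3. For Nme1 the transcript Nme1-201, annotated as protein-coding, stood at 143, 159.5 and 195 TPM in ponatinib libraries, against 139.6, 115 and 148 TPM in DMSO libraries, more than the gene row. It was not called in a fit with each row as a feature, added after the data were seen (log2 fold change 0.30, SE 0.13, adjusted p = 0.120), but gene row and transcript row together were (log2 fold change 0.31, adjusted p = 0.0346).

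The Tyms call depended on which rows were used. Its gene row held 22.8, 19.6 and 23.3% of the gene sum with ponatinib, against 18.9, 16.9 and 16.6% with DMSO. The largest row, Tyms-205, is annotated as a target of nonsense-mediated decay and stood at 93.6, 108 and 96.1 TPM in ponatinib libraries, against 89.5, 97.5 and 82.3 TPM in DMSO libraries, with overlapping groups (log2 fold change 0.14, SE 0.082, adjusted p = 0.213). Tyms-209, annotated as protein-coding, was lower, at 10.4, 6.45 and 4.28 TPM in ponatinib libraries, against 18.1, 19.6 and 16.9 TPM in DMSO libraries (log2 fold change -1.32, SE 0.26, adjusted p = 0.00915), without overlap. With all rows added, Tyms averaged 150.0 ± 8.49 TPM with ponatinib and 144 ± 14.7 TPM with DMSO (log2 fold change 0.062, SE 0.080, adjusted p = 0.577), and the call of the gene row was gone.

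For Samhd1 the means of the rows differed in opposite directions. The gene row held 44.7, 46.8 and 43.4% of the gene sum with ponatinib, against 55.2, 61.0 and 48.6% with DMSO, without overlap between the groups. The transcript Samhd1-206, annotated as protein-coding, stood at 160.0, 118 and 122 TPM in ponatinib libraries, against 98.6, 85.8 and 135 TPM in DMSO libraries (log2 fold change 0.33, SE 0.18, adjusted p = 0.200). Neither row was called, and the sum averaged 243 ± 41.4 TPM with ponatinib and 235 ± 25.8 TPM with DMSO (log2 fold change 0.040, adjusted p = 0.817). For Adsl, the decay-annotated transcript Adsl-205 stood at 54.2, 58.0 and 55.7 TPM in ponatinib libraries, against 49.4, 47.5 and 52.1 TPM in DMSO libraries (log2 fold change 0.17, SE 0.057, adjusted p = 0.0545), without overlap. A decay-annotated transcript of Rrm1 and the transcript Gart-210 were smaller, with means of 6.96 and 11.4 TPM with ponatinib and 17.5 and 9.72 TPM with DMSO, and neither was called (adjusted p = 0.162 and 0.195). With transcript rows added to all genes, 13 of the 30 members were again higher and 0 lower, against 27.3% and 9.13% of 6816 kept genes; 12 of the 13 were the same, with Umps in place of Tyms.

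**Figure D4:**
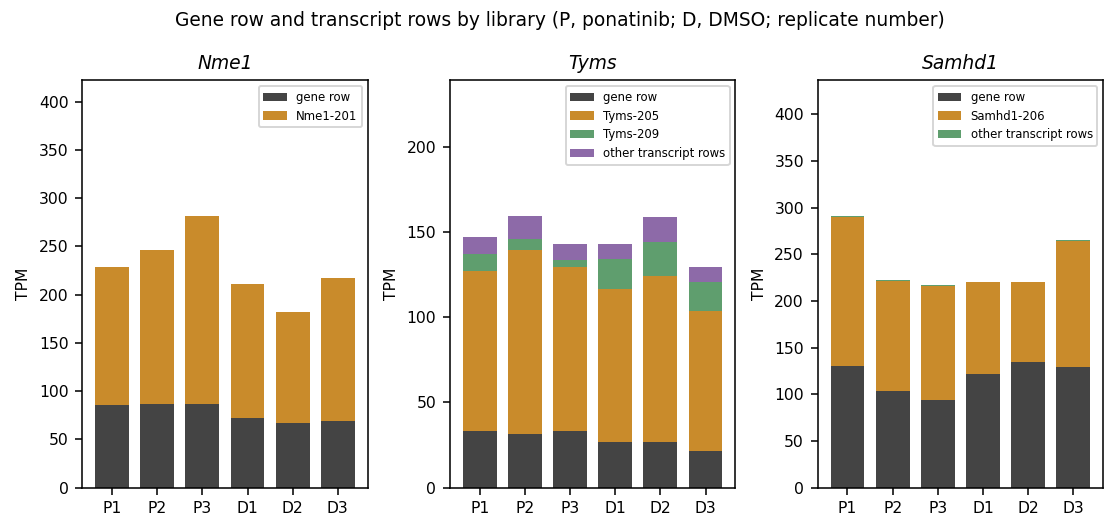
Level of the gene row and of the transcript rows of Nme1, Tyms and Samhd1 (TPM, stacked, axes from 0) in each of the 3 ponatinib (P) and 3 DMSO (D) libraries. Tyms-205 is the largest part of Tyms in all 6 libraries, Tyms-209 is smaller in the ponatinib libraries, and the Samhd1 gene row is a smaller part of the sum in the ponatinib libraries.

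Other genes of nucleotide metabolism, 52 in a list written from textbook knowledge, gave a mixed result. Of these, 30 were kept, 7 were higher and 2 lower, and the median log2 fold change was 0.14. Of all 6466 kept genes 29.9% were higher and 9.88% lower. On the medians of ratios scale 2 were higher and 3 lower, against 16.4% and 18.0% of all kept genes. The 4 called genes with the largest rise were Itpa, Dctd, Ada and Uck1. Itpa, which clears ITP and dITP, averaged 71.0 ± 2.85 TPM with ponatinib and 54.4 ± 0.989 TPM with DMSO (log2 fold change 0.38, SE 0.053, adjusted p = 0.00157). Dctd, which deaminates dCMP to dUMP, averaged 13.2 ± 1.41 TPM with ponatinib and 9.99 ± 1.05 TPM with DMSO (log2 fold change 0.37, SE 0.11, adjusted p = 0.0272), and Ada, the adenosine deaminase whose loss causes immunodeficiency in humans, 16.3 ± 0.733 TPM with ponatinib and 13.1 ± 0.528 TPM with DMSO (log2 fold change 0.30, SE 0.072, adjusted p = 0.0136). Uck1, a uridine and cytidine kinase, averaged 27.4 ± 0.660 TPM with ponatinib and 22.6 ± 1.04 TPM with DMSO (log2 fold change 0.27, SE 0.062, adjusted p = 0.0118). The called genes that fell were Nme4, a mitochondrial nucleoside diphosphate kinase, at 13.9 ± 1.16 TPM with ponatinib and 20.6 ± 1.94 TPM with DMSO (log2 fold change -0.53, SE 0.093, adjusted p = 0.00383), and Nt5c, a nucleotidase that acts on deoxynucleotides, at 131 ± 4.42 TPM with ponatinib and 167 ± 11.3 TPM with DMSO (log2 fold change -0.35, SE 0.061, adjusted p = 0.00392). After medians of ratios Itpa, Uck1, Nme4 and Nt5c were still called (adjusted p = 0.00431, 0.0463, 0.00250 and 0.00341), and Dctd and Ada were not (0.0524 and 0.0589). Listed genes under the minimum mean of 10 TPM were not tested, and 2 of them were picked after their values were seen. Ak4 stood at 0.992, 1.34 and 0 TPM in ponatinib libraries, against 14.7, 13.2 and 13.5 TPM in DMSO libraries. Nt5c2 went the other way, at 9.46, 10.5 and 7.72 TPM in ponatinib libraries, against 4.45, 7.20 and 6.36 TPM in DMSO libraries.

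The pathways that supply carbon and ribose to nucleotide synthesis had more genes lower than higher. Of 8 kept one-carbon and serine enzymes, 6 were lower and 2 higher, and the median log2 fold change was -0.50, and of 9 kept genes for ribose phosphate supply, 4 were lower and 0 higher, with a median of -0.14. The counts were 6 lower and 1 higher, and 6 lower and 0 higher, after medians of ratios. Of all kept genes 9.88% were lower and 29.9% higher on the deposited scale, and 18.0% and 16.4% after medians of ratios. The genes named here were chosen after their values were seen. Mthfd2, the mitochondrial folate enzyme of dividing cells, averaged 136 ± 3.65 TPM with ponatinib and 222 ± 33.0 TPM with DMSO (log2 fold change -0.69, SE 0.095, adjusted p = 0.00155). Psph, Psat1, Shmt2, Phgdh and Mthfd1l were called lower too (log2 fold changes -1.16, -0.69, -0.56, -0.44 and -0.38). In the ribose phosphate list Pgls, Pgd and Tkt were called lower (log2 fold changes -0.46, -0.37 and -0.25). The largest fall in that list was in Pgm1, at 31.3 ± 2.31 TPM with ponatinib and 97.1 ± 15.0 TPM with DMSO (log2 fold change -1.59, SE 0.11, adjusted p = 0.000148). Pgm1 acts mainly on glucose phosphates, so its fall is not one of ribose supply, although it is among the 4 counted. Pgm2, also listed, was not called (log2 fold change -0.014, adjusted p = 0.893). Called higher were 2 one-carbon genes. The cytosolic Shmt1 averaged 91.2 ± 3.49 TPM with ponatinib and 61.3 ± 3.73 TPM with DMSO (log2 fold change 0.57, SE 0.062, adjusted p = 0.000639). Mthfd1, also cytosolic, which makes the formyl donor used by Gart and Atic, averaged 129 ± 4.33 TPM with ponatinib and 109 ± 4.99 TPM with DMSO (log2 fold change 0.24, SE 0.054, adjusted p = 0.00986); its call ended after medians of ratios (adjusted p = 0.132). No difference between these lists and the 30 genes was tested.

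**Figure D5:**
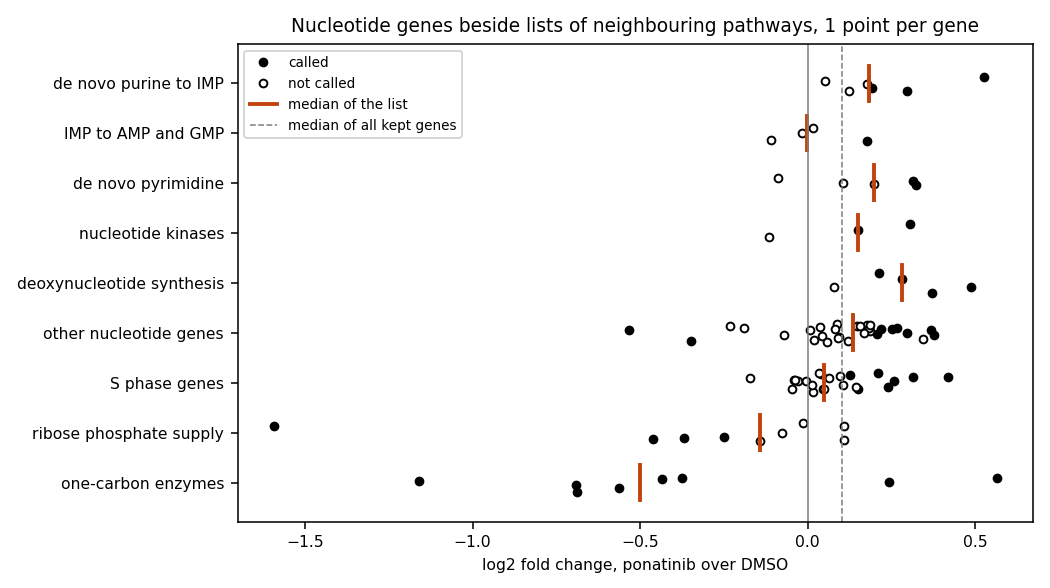
Log2 fold change of single genes, ponatinib over DMSO, for the 5 steps with 3 or more genes and for 4 neighbouring lists, filled where called, with the median of each list as a bar. The medians run from 0.28 for deoxynucleotide synthesis to -0.50 for one-carbon enzymes, and the dashed line marks the median of all kept genes, 0.10.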

How the data were processed

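RNA had been extracted with RNeasy Plus Micro columns and made into libraries with a NEBNext Ultra II RNA kit, per the labels' protocols. The authors deposited 1 table; each of its 6 columns sums to 1000000 over 43072 rows, so the deposited values were treated as TPM although they are described as normalized counts. GRCm38, DESeq2 1.22.1, Salmon 1.5.1 and fastp 0.19.5 are listed, per the submitters' processing notes, without roles. The sources used here do not give how transcripts were summed to genes. Of 22095 gene rows and 20977 transcript rows, 22011 and 20793 were found in GENCODE mouse release 21 (GRCm38); 11 identifiers had the same version there and the authors may have used another release.

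Gene rows with a mean of at least 10 TPM were compared as log2(TPM + 1), which understates changes of low genes, with limma 3.58.1 in R 4.3.3 (intensity trend, two-sided), and p-values were adjusted over all 6466. The code of the fit was run on simulated data with independent noise and known changes in few genes, balanced up and down. The simulation had no shift of the whole scale, so it cannot speak for the calls in these data. An exact permutation test of 3 against 3 cannot go below p = 0.1 and was not used. TPM hide read depth, so precision rests on the spread of 3 libraries; the median SE was 0.075. Alternatives covered the rows used, the filter, the pseudocount, the scaling, the empirical Bayes settings, a replicate block and leaving out each library; a fit of every row as a feature was added after seeing the data. The members, lists and tests were chosen with earlier results of these data known. All members are named. Of the other nucleotide genes, the 4 called with the largest change in each direction are named, as are Ak4 and Nt5c2, which were not kept. Same-numbered libraries of both groups deviated with correlations of -0.098, 0.127 and 0.0094, so the replicate numbers were not taken as pairs. The values of 1 marker gene are not reported here.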

Additional observations from a re-analysis of the deposited data

How the results depend on the processing

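Over the 30 genes and all alternatives there were 510 values, of which 443 kept their direction and side of the threshold, 41 lost a call, 11 gained one and 15 changed sign. No gene called on the deposited scale changed sign. Part of this count was fixed in advance. The filter, intensity trend, robust and block settings and the fit of every row leave the log2 fold change of a gene row as it is. Adding transcript rows leaves it unchanged in members without such rows. In these only the call could change. After medians of ratios 7 members were higher and 3 lower, of all genes 1059 and 1166, and of the other nucleotide genes 2 were higher; after quantile normalization 7 and 3, 1276 and 1001, and 3. With 1 library left out, 6 to 15 members were higher and 0 to 1 lower, 1138 to 2745 genes were higher and 463 to 677 lower, and 1 to 10 other nucleotide genes were higher; the lowest member count came without ponatinib replicate 3, and 7, 8 and 15 members were higher without ponatinib replicate 2, DMSO replicate 1 and DMSO replicate 3. Median log2 fold changes after medians of ratios were 0.047 for all 30 genes, 0.080 for the path to IMP, -0.10 for the AMP and GMP branches, 0.095 for pyrimidine synthesis, 0.048 for the 3 nucleotide kinases, 0.18 for deoxynucleotide synthesis; after quantile normalization they were 0.079 for all 30 genes, 0.13 for the path to IMP, -0.065 for the AMP and GMP branches, 0.12 for pyrimidine synthesis, 0.079 for the 3 nucleotide kinases, 0.22 for deoxynucleotide synthesis. With transcript rows added, the deoxynucleotide and pyrimidine medians were both 0.20, Nme1 made up 24.2% of its pair with ponatinib and 19.2% with DMSO, and Rrm1 made up 46.8% with ponatinib and 51.7% with DMSO. The pyrimidine median ran from 0.12 to 0.24 with 1 library left out. Signs changed only in genes that were not called: after medians of ratios Paics (-0.054), Gmps (-0.087), Aprt (-0.099), Dut (-0.025) and Tk1 (-0.0093), after quantile normalization Paics (-0.0035), Gmps (-0.049) and Aprt (-0.029), with transcript rows added Samhd1 (0.040), and with 1 library left out Impdh1 (-0.049 to 0.040), Gmps (-0.010 to 0.038) and Aprt (-0.041 to 0.057). With a replicate block, 11 members were higher and 0 lower; Adss and Guk1 lost their call (adjusted p = 0.0615 and 0.0525). The cause of these changes was not tested. Read depth is unknown, so a difference that missed the threshold may lie within sampling noise.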
